A study of Mus musculus with 9 samples.

Results

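The ATF4 program and the amino acid supply genes of mouse mast cells are described here as a set of 39 genes: 6 transcription factors of the integrated stress response, 5 of its effectors, 9 enzymes that make serine, asparagine, cysteine and one-carbon units, 7 amino acid transporters and 12 cytosolic tRNA synthetases. The genes were listed by name, with earlier results of these data known, and all 39 were found among the 23951 gene symbols of the deposited table. Levels are in FPKM, read fragments scaled to transcript length and to library size, so that genes of unlike length can be set beside each other. Between libraries no further scaling was applied in the main fit, and what other scalings changed is given at the end. The cells were bone marrow-derived mast cells, primary cells grown from wild-type C57BL/6 bone marrow for 4 to 6 weeks in medium with interleukin-3 and stem cell factor (10 ng/ml of either), and by the labels more than 95% were positive for CD117 and FcER1, the receptor that binds IgE. In the antigen group (3 libraries) an 18 h loading with IgE at 0.5 µg/ml was followed by 2 h of DNP-BSA at 50 ng/ml, a hapten-coupled albumin that cross-links the IgE on its receptor. The IgE group (3 libraries) received the same IgE without antigen. The untreated group (3 libraries) received neither, and all 3 groups share the growth factors. Whether the replicates are separate mice or cultures is not stated in the labels, so p-values here reflect the spread among these libraries only, and that spread may be technical.

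The integrated stress response starts when kinases such as PERK, GCN2, PKR and HRI phosphorylate the translation initiation factor eIF2. Most translation then falls, while ATF4, whose mRNA carries upstream open reading frames, is translated more, and mTORC1 can raise ATF4 without that phosphorylation. ATF4 pairs with C/EBP-type factors and binds C/EBP-ATF response elements in genes for amino acid synthesis, amino acid import and tRNA charging. In activated mast cells, granule contents are released and cytokines and other proteins are made anew. Because ATF4 is controlled largely at translation, the mRNA levels given below do not measure the protein or its activity.

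The C/EBP-ATF response element has the core TGATGNAA, and the windows from 250 bases before to 50 bases after each gene's start (RefSeq, GRCm38.p6) were searched for it on both strands, so that TTNCATCA counts as a match too. A window was at hand for 31 of the 39 genes, and 13 of them (41.9%) held at least 1 match. Atf5, Psat1, Slc7a1 and Vldlr had 2 windows each, and a match in either counted. The match of Vldlr lay in only 1 of its 2 windows. Among all 27025 genes with a window the share was 4.51%, and among the 8246 of them that were also tested for expression it was 2.76%. By role, a match was found in 5 of 8 tRNA synthetases, 3 of 5 stress effectors, 2 of 5 transporters, 2 of 7 synthesis enzymes and 1 of 6 transcription factors. A match is a description of the letters and not a mapped site. The 39 genes were listed as those of the ATF4 program and amino acid supply, so their share of matches is not independent of how the list was made.

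The 250 bases before the start are shown for 5 genes that hold a match and rose with antigen, and for Atf4 and Ddit4, which hold none in the same window. Atf4 encodes the factor itself and Ddit4 is the one member that did not pass the test with antigen. Capitals mark the matches, and each sequence runs 5′ to 3′ along the gene's strand. The windows lie in GRCm38.p6 as follows: Chac1 at chr2:119350992-119351241 on the plus strand, Slc7a11 at chr3:50443614-50443863 on the minus strand, Asns at chr6:7693210-7693459 on the minus strand, Nupr1 at chr7:126625471-126625720 on the minus strand, Aars at chr8:111033592-111033841 on the plus strand, Atf4 at chr15:80254934-80255183 on the plus strand and Ddit4 at chr10:59951771-59952020 on the minus strand.
Chac1: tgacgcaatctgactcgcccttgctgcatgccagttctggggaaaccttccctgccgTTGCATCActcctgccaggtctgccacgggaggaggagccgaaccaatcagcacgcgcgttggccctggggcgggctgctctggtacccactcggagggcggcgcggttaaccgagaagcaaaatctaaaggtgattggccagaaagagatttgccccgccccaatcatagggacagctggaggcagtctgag
Slc7a11: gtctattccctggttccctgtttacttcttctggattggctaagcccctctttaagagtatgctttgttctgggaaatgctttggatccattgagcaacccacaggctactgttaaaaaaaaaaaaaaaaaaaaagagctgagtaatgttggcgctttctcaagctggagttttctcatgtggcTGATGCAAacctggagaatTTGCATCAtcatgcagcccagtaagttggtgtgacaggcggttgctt
Asns: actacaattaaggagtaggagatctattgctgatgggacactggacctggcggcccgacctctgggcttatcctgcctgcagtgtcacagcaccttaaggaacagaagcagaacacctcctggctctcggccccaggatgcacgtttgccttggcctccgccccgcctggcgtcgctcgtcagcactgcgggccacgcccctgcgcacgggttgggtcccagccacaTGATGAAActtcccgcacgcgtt
Nupr1: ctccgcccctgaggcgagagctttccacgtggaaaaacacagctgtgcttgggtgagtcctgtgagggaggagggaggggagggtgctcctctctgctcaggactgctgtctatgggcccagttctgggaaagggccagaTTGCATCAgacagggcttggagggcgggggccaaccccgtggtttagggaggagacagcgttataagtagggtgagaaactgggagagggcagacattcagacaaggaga
Aars: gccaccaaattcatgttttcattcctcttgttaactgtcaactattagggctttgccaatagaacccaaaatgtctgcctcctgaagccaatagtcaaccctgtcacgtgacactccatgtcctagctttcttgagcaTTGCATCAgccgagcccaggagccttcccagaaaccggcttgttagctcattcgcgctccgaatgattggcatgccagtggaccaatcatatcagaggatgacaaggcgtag
Atf4: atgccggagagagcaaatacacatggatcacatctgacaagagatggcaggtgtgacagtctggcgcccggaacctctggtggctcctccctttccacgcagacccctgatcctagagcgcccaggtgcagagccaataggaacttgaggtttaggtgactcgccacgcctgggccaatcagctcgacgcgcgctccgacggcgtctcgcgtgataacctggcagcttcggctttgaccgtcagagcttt
Ddit4: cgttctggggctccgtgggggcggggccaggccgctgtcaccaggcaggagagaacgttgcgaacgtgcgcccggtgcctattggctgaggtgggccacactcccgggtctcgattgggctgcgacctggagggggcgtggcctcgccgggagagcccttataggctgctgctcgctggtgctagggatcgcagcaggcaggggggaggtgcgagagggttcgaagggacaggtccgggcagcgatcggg
Slc7a11 held a pair of matches in opposite orientation, at -66 to -59 and at -47 to -40 from the start (the last base before the start is -1). In Chac1 the match lay at -193 to -186, in Nupr1 at -110 to -103, in Aars at -112 to -105 and in Asns at -23 to -16. Aars held a further match after the start, at 10 to 17.

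The remaining 8 genes with a match are shown as the match and 11 bases on each side, because some of these matches lie at or after the start. They are Trib3 (chr2:152344028-152344057, minus strand), Vldlr (chr19:27216809-27216838, plus strand), Pck2 (chr14:55540152-55540181, plus strand), Slc1a4 (chr11:20332699-20332728, minus strand), Gars (chr6:55037960-55037989, plus strand), Iars (chr13:49682126-49682155, plus strand), Tars (chr15:11399655-11399684, minus strand) and Yars (chr4:129189895-129189924, plus strand), all in GRCm38.p6.
Trib3: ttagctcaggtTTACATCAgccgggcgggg
Vldlr: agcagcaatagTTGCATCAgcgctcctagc
Pck2: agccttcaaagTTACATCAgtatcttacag
Slc1a4: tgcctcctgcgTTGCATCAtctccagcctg
Gars: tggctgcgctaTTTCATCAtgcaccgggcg
Iars: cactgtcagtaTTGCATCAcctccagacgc
Tars: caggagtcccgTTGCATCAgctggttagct
Yars: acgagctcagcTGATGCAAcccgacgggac
With antigen, the 13 genes that hold a match had a median log2 difference from IgE of 1.43, and the 18 genes with a window and no match had a median of 0.95. Over all tested genes with a window, the medians were 0.02 for the 228 with a match and -0.01 for the 8018 without, and 41.7% and 36.4% of them were called higher. Among the 39 genes, 13 of 13 with a match and 17 of 18 with a window and no match were called higher. The 8 genes without a window had a median of 0.998, and 8 of 8 were called higher. Vldlr, among the 13, reached 1 FPKM in the antigen libraries alone. It was tested only for that reason and had to differ, so the median and count of the 13 rest partly on it.

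A few facts of the libraries bear on the values. Depth, estimated from the steps of the lowest FPKM values, was 20.9M to 28.7M reads in the antigen libraries, 32.3M to 40.0M in the IgE libraries and 29.9M to 33.7M in the untreated ones. For a 2 kb transcript in the shallowest library, counting noise comes to 15.5% of the value at 1 FPKM and to 4.89% at 10 FPKM, and this covers counting error only. IgE replicate 3 stood apart: the SD over genes of its log2 difference from its group mates was 0.175, where the remaining 8 libraries gave 0.099 to 0.123. It was more than 1.2 times the mean of its group mates in 7 of the 39 genes (17.9%) and in 11.6% of all tested genes. Among 10 mast cell markers, 8 were expressed and the defining markers Cpa3 and Cma1 were listed at 0 in all 9 libraries. An exact 0 in such a table can be a failed estimate. The summed markers stood at 15085 to 15468 FPKM with antigen, 13876 to 14670 FPKM with IgE and 14725 to 15416 FPKM untreated. Summed markers of erythroid cells (5 genes) were at 30.0 to 31.6, 24.2 to 25.2 and 17.5 to 20.2 FPKM in antigen, IgE and untreated libraries, those of macrophages (5 genes) at 75.5 to 76.4, 76.0 to 82.7 and 91.7 to 97.8 FPKM, and those of dendritic cells (4 genes) at 2.35 to 2.61, 0.237 to 0.395 and 0.276 to 0.448 FPKM, and their part in the results was not tested. Those of basophils (3 genes) were at 553 to 574, 423 to 477 and 507 to 545 FPKM, and those of megakaryocytes (4 genes) at 392 to 404, 361 to 375 and 435 to 440 FPKM in antigen, IgE and untreated libraries. Neutrophil markers (4 of 5 listed genes found) summed to at most 2.35 FPKM in any library. T and B cell markers (5 genes, with Cd3e, Cd3g and Ms4a1 at 0 throughout) summed to at most 0.272 FPKM in any library. Of the 4 dendritic cell markers, only 1 reached 1 FPKM in 3 libraries. These were the antigen libraries, so it had to differ, and it was 13.5-fold higher with antigen than with IgE. In bulk RNA, a change in the number of cells of a type and a change in RNA per cell cannot be told apart.

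The comparison of antigen with IgE asks what 2 h of receptor cross-linking does to cells already carrying IgE. Genes of every role rose, the cystine and neutral amino acid transporters and the glutathione-degrading enzyme Chac1 by the most on the log2 scale, and the mTORC1 inhibitor Ddit4 alone did not pass the test. Of the 39 genes, 38 were called higher and 0 lower with limma's adjusted p under 0.05, where 36.2% of all 10890 tested genes were called higher and 34.9% lower, 71.1% in either direction. In 38 of the 39 genes every antigen library lay above every IgE library, against 37.1% of all tested genes. The median log2 difference was 1.05 over the 39 genes and -0.01 over all tested genes, on the log2(FPKM + 1) scale, and 22 of the 39 were called higher with a log2 difference of at least 1, against 7.34% of all tested genes. Vldlr passed the filter on low values (at least 1 FPKM in at least 3 libraries) through the antigen libraries alone and so had to differ, and without it the count was 37 of 38.

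**Figure D1:**
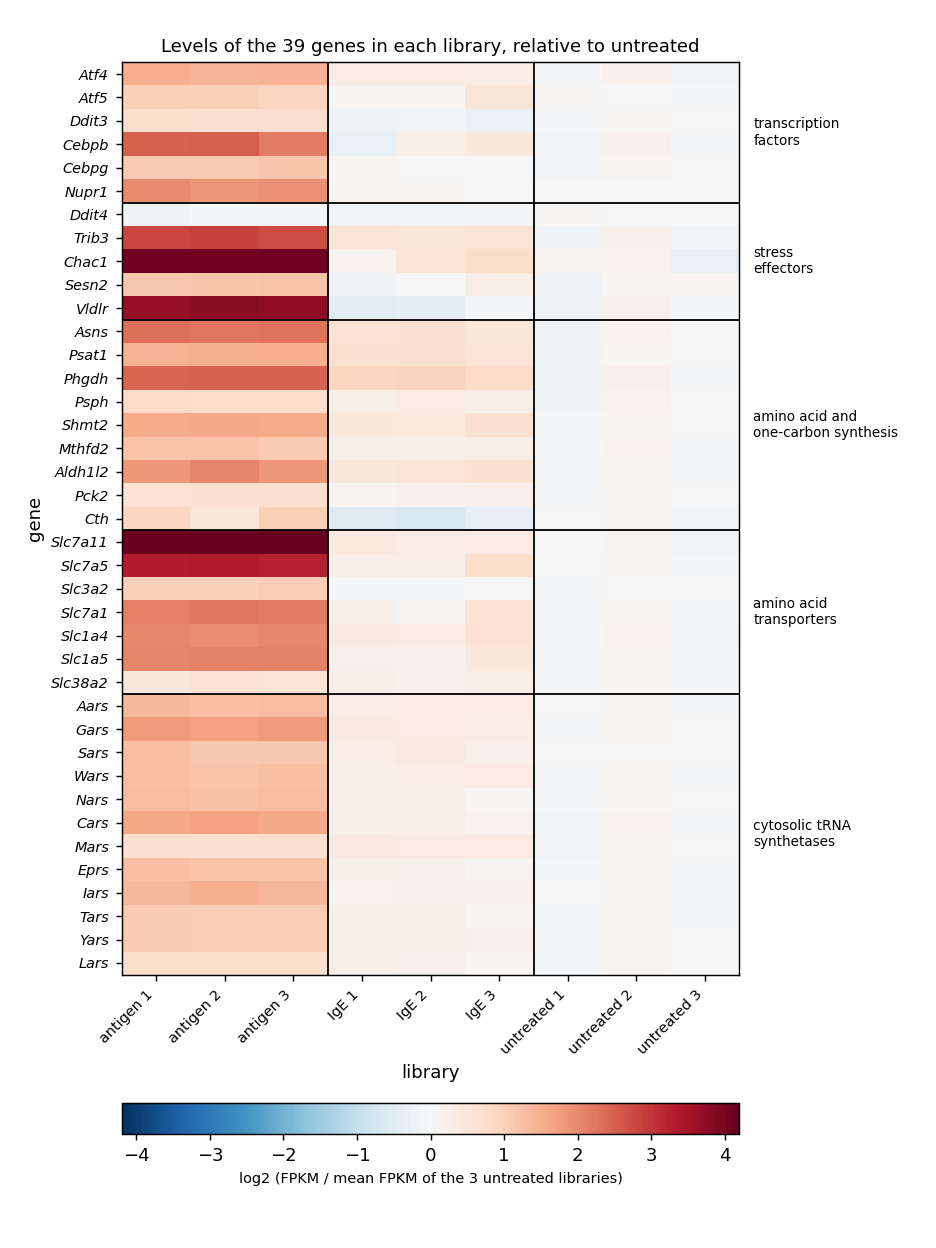
FPKM of the 39 genes (rows, by role) in each of the 9 libraries (columns), as log2 of the ratio to the mean of the 3 untreated libraries. The antigen columns are red in all rows but Ddit4, where all 3 antigen libraries lie near 0, and the IgE columns are pale, with the strongest colour in Phgdh, whose IgE libraries averaged 28.7 FPKM, against 15.5 FPKM in untreated libraries.

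All 6 transcription factors rose with antigen. Atf4, the central activator, stood at 630.0, 587 and 605 FPKM in the antigen libraries, 278, 278 and 273 FPKM in the IgE libraries and 206, 247 and 203 FPKM in the untreated libraries. The antigen libraries held the 3 highest values, and with a mean of 607 ± 21.6 FPKM Atf4 was the most abundant of the 39 genes in that group. The rise over IgE was 2.2-fold (log2 1.13, SE 0.0716, limma adjusted p = 1.8e-06). Cebpb, a C/EBP factor that can pair with ATF4, had 27.1, 27.4 and 21.5 FPKM in the antigen libraries, 3.86, 5.86 and 6.56 FPKM in the IgE libraries and 4.45, 5.52 and 4.52 FPKM in the untreated libraries. Its antigen libraries lay above all others, although antigen replicate 3 was lower than its group mates, and the IgE values spread over a wide range for their level. The rise was 4.67-fold (log2 2.05, SE 0.169, limma adjusted p = 9.03e-06).

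Nupr1, a small stress-induced chromatin protein, had 106, 97.5 and 102 FPKM in the antigen libraries, 28.9, 27.8 and 27.4 FPKM in the IgE libraries and 27, 27.2 and 26.5 FPKM in the untreated libraries. IgE and untreated libraries were within a narrow band, and the antigen libraries lay well above it, 3.63-fold over IgE (log2 1.82, SE 0.0377, limma adjusted p = 3.2e-09). Ddit3, which encodes CHOP, the pro-apoptotic C/EBP factor of the response, had 78.8, 75.8 and 77.4 FPKM in the antigen libraries, 42.8, 44.2 and 38.8 FPKM in the IgE libraries and 45.5, 48.8 and 48.4 FPKM in the untreated libraries. Its groups did not overlap, with IgE lowest and antigen highest, and the rise over IgE was 1.84-fold (log2 0.87, SE 0.0512, limma adjusted p = 1.16e-06). Cebpg, the partner of ATF4 in binding the response element, averaged 40.9 ± 0.953 FPKM with antigen, 19.3 ± 0.786 FPKM with IgE and 18.9 ± 1.38 FPKM untreated (SD, n = 3 each), a rise of 2.13-fold over IgE (limma adjusted p = 4.89e-07). Atf5, a relative of ATF4 that is also controlled at translation, averaged 34.7 ± 1.34 FPKM with antigen, 20.9 ± 3.82 FPKM with IgE and 17.8 ± 0.79 FPKM untreated, with 1.66-fold more in antigen than in IgE libraries (limma adjusted p = 3.5e-04). IgE replicate 3 was the highest IgE library for Atf5, at 25.3 FPKM, and without it the log2 difference was 0.85 in place of 0.72.

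Among the effectors, 4 of 5 rose, where 36.2% of all tested genes were called higher. Without Vldlr, which passed the filter on low values through the antigen libraries alone and so had to differ, 3 of 4 rose. Chac1, an enzyme that breaks down glutathione, had 21.6, 20.8 and 21.5 FPKM in the antigen libraries, 1.38, 1.86 and 2.11 FPKM in the IgE libraries and 1.35, 1.4 and 1.02 FPKM in the untreated libraries. The IgE and untreated libraries overlapped near 1 to 2 FPKM and the antigen libraries lay far above, 11.9-fold over IgE (log2 3.01, SE 0.104, limma adjusted p = 5.03e-08). Trib3, a pseudokinase that binds ATF4 and CHOP and restrains them, had 38.3, 39.8 and 36.5 FPKM in the antigen libraries, 8.06, 7.75 and 8.06 FPKM in the IgE libraries and 5.01, 6.36 and 5.12 FPKM in the untreated libraries. The 3 groups were apart from each other, and antigen exceeded IgE 4.8-fold (log2 2.13, SE 0.0763, limma adjusted p = 6.14e-08). Sesn2, a leucine-binding inhibitor of mTORC1, averaged 29.7 ± 0.633 FPKM with antigen, 13.7 ± 2.04 FPKM with IgE and 13.2 ± 1.04 FPKM untreated and was 2.17-fold higher with antigen than with IgE (limma adjusted p = 1.42e-05).

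Vldlr, a lipoprotein receptor gene that ATF4 is known to activate, was at a low level without antigen, with 3.24, 3.51 and 3.38 FPKM in the antigen libraries, 0.184, 0.195 and 0.248 FPKM in the IgE libraries and 0.225, 0.297 and 0.243 FPKM in the untreated libraries. The ratio of means was 16.2-fold over IgE, while the log2(FPKM + 1) difference, in which the added 1 shrinks changes of low genes, was 1.86 (limma adjusted p = 1.18e-08). Because Vldlr passed the filter on low values through the antigen libraries alone, it had to differ, and its p-value is no separate support for a rise. Ddit4, which encodes the mTORC1 inhibitor REDD1, had 34.5, 37.7 and 37.9 FPKM in the antigen libraries, 35.9, 36.7 and 38.4 FPKM in the IgE libraries and 40.9, 38.5 and 38.5 FPKM in the untreated libraries. Antigen and IgE libraries overlapped, and the log2 difference of -0.01 had a 95% interval -0.12 to 0.10 (limma adjusted p = 0.836), so that a rise of the size seen in Atf4 lies outside the interval. Ddit4 is known as a target of several pathways besides ATF4, among them glucocorticoid and hypoxia signalling.

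**Figure D2:**
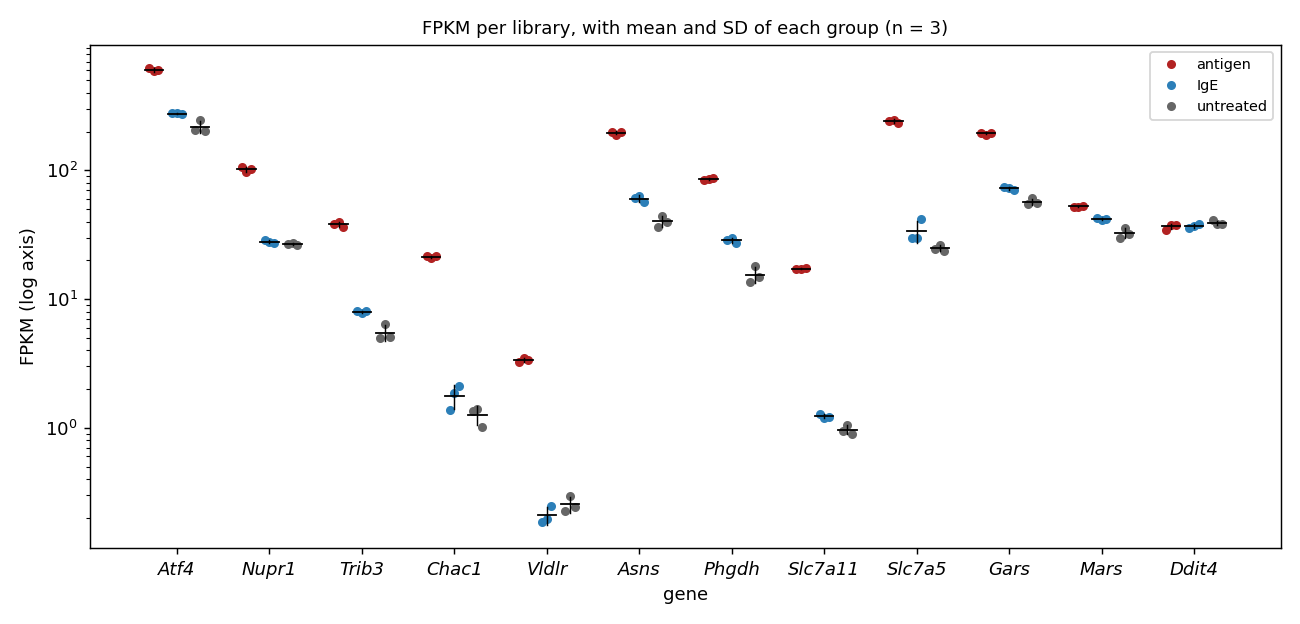
FPKM on a log axis for 12 of the genes, with each library as a point and the mean and SD of each group (n = 3) as black lines, from left to right antigen, IgE and untreated within each gene. Vldlr, Chac1 and Slc7a11 lie near or below 2 FPKM without antigen and at 3.24 FPKM or more with it, Mars changes less than Gars, and the 9 libraries of Ddit4 lie between 34.5 and 40.9 FPKM.

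All 9 enzymes of amino acid and one-carbon synthesis rose with antigen. Asns, asparagine synthetase, had 200.2, 189.7 and 197 FPKM in the antigen libraries, 61.6, 63.2 and 56.4 FPKM in the IgE libraries and 36.6, 44.5 and 39.6 FPKM in the untreated libraries. The groups were in 3 separate bands, and antigen exceeded IgE 3.24-fold (log2 1.68, SE 0.0711, limma adjusted p = 1.59e-07). Serine is made from a glycolytic intermediate by Phgdh, Psat1 and Psph in turn. Phgdh, the first of these enzymes, had 84, 85.7 and 86.6 FPKM in the antigen libraries, 28.9, 29.8 and 27.2 FPKM in the IgE libraries and 13.6, 18 and 15 FPKM in the untreated libraries. Each group again formed a band of its own, with antigen 2.98-fold over IgE (log2 1.54, SE 0.0862, limma adjusted p = 8.2e-07). Psat1, the aminotransferase of the next step, averaged 130.4 ± 2.74 FPKM with antigen, 72 ± 3.33 FPKM with IgE and 46.5 ± 4.3 FPKM untreated (1.81-fold over IgE, limma adjusted p = 5.59e-06). Psph, the final phosphatase, moved least of these enzymes, with 20.9 ± 0.194 FPKM with antigen, 14.7 ± 0.487 FPKM with IgE and 12.1 ± 1.45 FPKM untreated (1.42-fold over IgE, limma adjusted p = 4.21e-04).

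The mitochondrial one-carbon enzymes followed the same direction. Shmt2, which splits serine into glycine and a one-carbon unit, averaged 88.4 ± 0.994 FPKM with antigen, 42.5 ± 4.24 FPKM with IgE and 29.9 ± 2.02 FPKM untreated and was 2.08-fold higher with antigen than with IgE (limma adjusted p = 2.93e-06). Mthfd2, the next enzyme of the folate cycle, averaged 108 ± 3.7 FPKM with antigen, 58.5 ± 0.80 FPKM with IgE and 48.5 ± 4.4 FPKM untreated, which was 1.86-fold over IgE (limma adjusted p = 2.76e-06). Aldh1l2, a mitochondrial enzyme that makes NADPH from formyl folate, was much less abundant, at 3.28 ± 0.302 FPKM with antigen, 1.29 ± 0.0815 FPKM with IgE and 0.881 ± 0.0728 FPKM untreated (2.54-fold over IgE, limma adjusted p = 3.26e-06). Pck2, the mitochondrial PEP carboxykinase, averaged 34.8 ± 1.09 FPKM with antigen, 25.1 ± 0.843 FPKM with IgE and 22.2 ± 0.70 FPKM untreated (1.39-fold over IgE, limma adjusted p = 1.2e-05). Cth, which makes cysteine from cystathionine, had 2.41, 1.84 and 2.57 FPKM in the antigen libraries, 0.892, 0.822 and 1.01 FPKM in the IgE libraries and 1.32, 1.38 and 1.19 FPKM in the untreated libraries, the lowest of the 39 genes in antigen libraries. Antigen libraries were the highest and IgE libraries the lowest, 2.5-fold apart (limma adjusted p = 7.23e-05).

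All 7 transporters rose with antigen. Slc7a11, which with Slc3a2 forms the cystine-glutamate exchanger, had 17, 17.2 and 17.4 FPKM in the antigen libraries, 1.28, 1.2 and 1.22 FPKM in the IgE libraries and 0.951, 1.06 and 0.90 FPKM in the untreated libraries. The antigen libraries were close to each other and stood 13.9-fold over IgE (log2 3.03, SE 0.0437, limma adjusted p = 6.09e-10). Slc7a5, the light chain of the large neutral amino acid exchanger LAT1, had 243, 248 and 233 FPKM in the antigen libraries, 30.1, 30.1 and 41.7 FPKM in the IgE libraries and 24.7, 26.2 and 23.6 FPKM in the untreated libraries. Antigen values were several times those of every other library, 7.11-fold over IgE (log2 2.81, SE 0.115, limma adjusted p = 1.3e-07), which made Slc7a5 the third most abundant of the 39 genes with antigen. IgE replicate 3 stood above both other IgE libraries, and without it the log2 difference was 2.96.

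Slc3a2, the heavy chain shared by both exchangers, had 457, 457 and 479 FPKM in the antigen libraries, 216, 216 and 226 FPKM in the IgE libraries and 221, 232 and 227 FPKM in the untreated libraries. It was already abundant without antigen, and it rose 2.12-fold (log2 1.08, SE 0.0361, limma adjusted p = 4.2e-08), less than either light chain. Slc1a5, a glutamine exchanger, averaged 61.7 ± 0.45 FPKM with antigen, 18 ± 1.82 FPKM with IgE and 14.8 ± 0.851 FPKM untreated (3.44-fold over IgE, limma adjusted p = 1.01e-07). Slc7a1, an importer of arginine and lysine, averaged 28.3 ± 1.09 FPKM with antigen, 7.91 ± 1.48 FPKM with IgE and 6.25 ± 0.455 FPKM untreated (3.58-fold over IgE, limma adjusted p = 1.61e-06). Slc1a4, which carries alanine, serine and cysteine, averaged 19.7 ± 0.468 FPKM with antigen, 6.71 ± 0.681 FPKM with IgE and 4.95 ± 0.474 FPKM untreated (2.94-fold over IgE, limma adjusted p = 5.71e-07). Slc38a2, the sodium-coupled transporter SNAT2, moved least, with 43, 46.6 and 44.5 FPKM in the antigen libraries, 36.3, 34.9 and 37.3 FPKM in the IgE libraries and 29.99, 32.8 and 29.4 FPKM in the untreated libraries. The antigen libraries still lay above every IgE library, 1.24-fold on average (limma adjusted p = 7.61e-04).

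All 12 cytosolic tRNA synthetases of the set rose with antigen, with log2 differences from 0.32 to 1.41 and a median of 0.94. Gars, the glycine enzyme, rose by the most, with 197, 189.8 and 196 FPKM in the antigen libraries, 74.2, 72.5 and 70.7 FPKM in the IgE libraries and 54.7, 60.7 and 56.3 FPKM in the untreated libraries. Antigen libraries were clear of all others, 2.68-fold over IgE (log2 1.41, SE 0.0424, limma adjusted p = 2.38e-08). Cars, for cysteine, had 50.3, 51.6 and 48.8 FPKM in the antigen libraries, against 19.1, 19.4 and 18 FPKM in the IgE libraries, which again did not overlap (2.67-fold, limma adjusted p = 3.53e-07). Iars (isoleucine) was 2.35-fold, Nars (asparagine) 2.12-fold, Eprs (glutamate and proline) 2.03-fold, Aars (alanine) 1.96-fold and Wars (tryptophan) 1.92-fold higher with antigen than with IgE. Their limma adjusted p-values ran from 1.05e-07 to 7.24e-07. Sars (serine), Tars (threonine) and Yars (tyrosine) were 1.83-fold, 1.82-fold and 1.76-fold higher, and Lars (leucine) 1.48-fold.

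Mars, for methionine, moved least of the 12, with 52.4, 51.9 and 53.2 FPKM in the antigen libraries, against 42.6, 41.1 and 41.7 FPKM in the IgE libraries. These values did not overlap either, and the difference was 1.26-fold (log2 0.32, SE 0.0551, limma adjusted p = 8.3e-04). In RefSeq's gene table the models of Mars and Ddit3 overlap by 71 bases, and 15 of the 39 genes overlap some other gene, 8 of them a protein-coding one. The longest overlaps with protein-coding genes were those of Aars with Ddx19b (3974 bases), Cebpg with Gm45095 (1084 bases) and Atf5 with Nup62 (571 bases), counted from gene start to gene end. The use of strand in the counting is not given in the sources used here, so reads in such stretches may be shared.

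**Figure D3:**
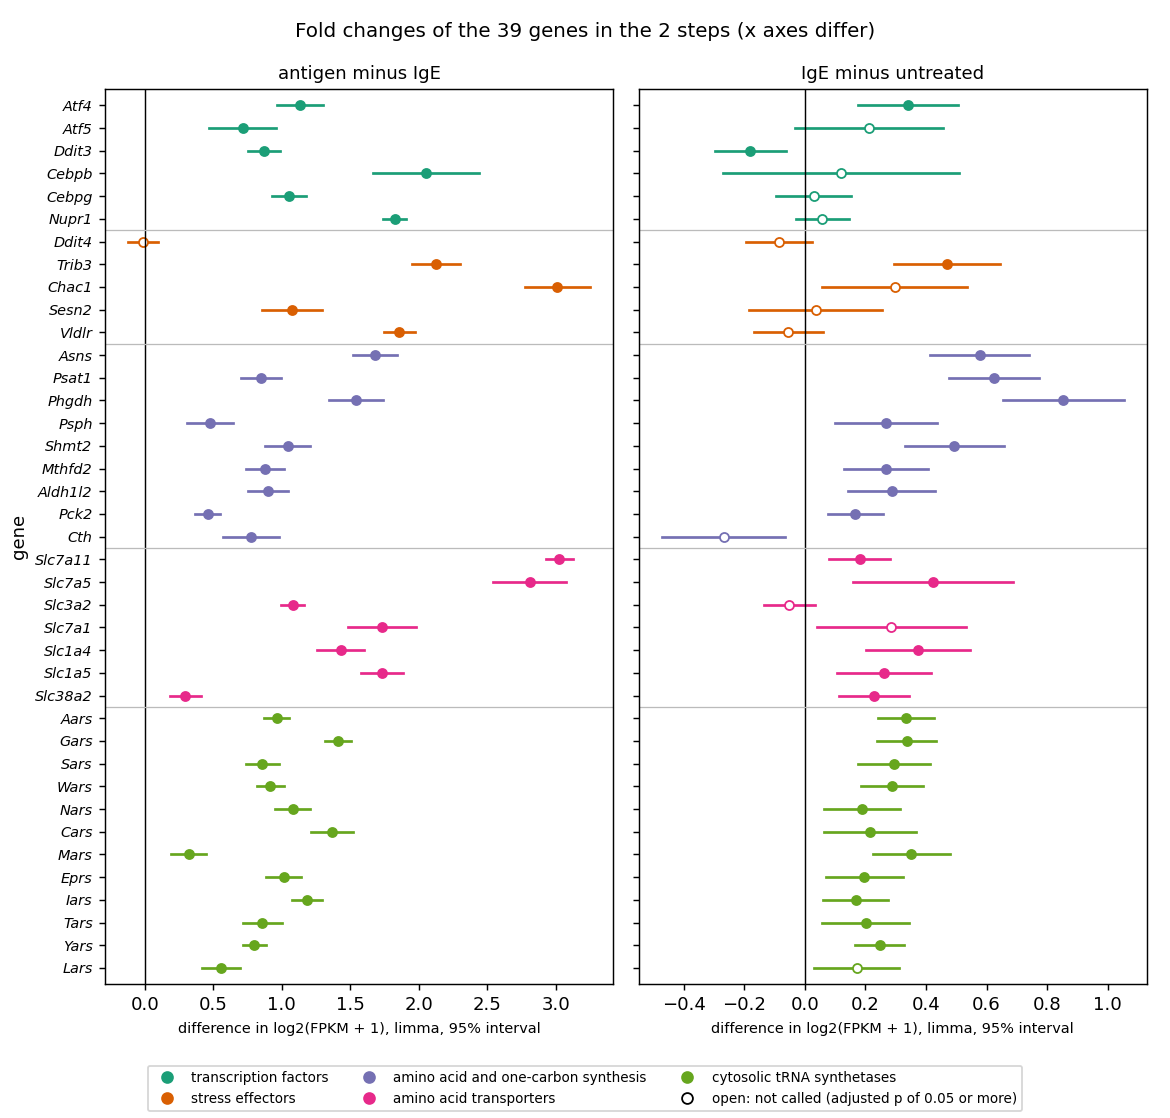
Difference in log2(FPKM + 1) with its 95% interval from limma for each gene, by role, for antigen minus IgE (left) and IgE minus untreated (right, on a narrower axis). Filled points passed the test. On the left all points but Ddit4 lie above 0, up to 3.03 for Slc7a11, and on the right the synthesis enzymes lead, with Phgdh at 0.85.

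The comparison of IgE with untreated cells asks what 18 h of IgE without antigen does. The changes were small and had another order: Phgdh, Psat1, Asns and Shmt2 led, followed by Trib3 and the transporters Slc7a5 and Slc1a4, the tRNA synthetases were at or below log2 0.35, and most transcription factors and effectors did not pass the test. Of the 39 genes, 26 were called higher and 1 lower by limma, where 14.5% of all tested genes were called higher and 13.1% lower, 27.5% in either direction. In 26 of the 39 genes every IgE library lay above every untreated one, against 21.3% of all tested genes, and none of the 39 was called higher with a log2 difference of at least 1, against 0.0275% of all tested genes. The median log2 difference was 0.25 over the 39 genes and -0.01 over all tested genes. This count leaned on single libraries: it was 16 without untreated replicate 1 and 17 without untreated replicate 3, against 27 without IgE replicate 3. Leaving out 1 of the 6 libraries ended the call of Psph, Mthfd2, Pck2, Slc7a11, Slc7a5, Slc1a5, Nars, Cars, Eprs, Iars, Tars or Ddit3 in at least 1 case, and of no other called gene of the 39.

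Phgdh showed the largest difference of the 39, 28.9, 29.8 and 27.2 FPKM with IgE, against 13.6, 18 and 15 FPKM in untreated libraries. That is 1.85-fold (log2 0.85, SE 0.0862, limma adjusted p = 4.86e-04), and rank 22 from the top among the 10890 tested genes. Psat1 had 73.9, 73.9 and 68.2 FPKM in the IgE libraries, against 42.3, 50.9 and 46.2 FPKM in the untreated libraries, which did not overlap (1.55-fold, log2 0.62, SE 0.0647, limma adjusted p = 5.47e-04). Asns had 61.6, 63.2 and 56.4 FPKM in the IgE libraries, against 36.6, 44.5 and 39.6 FPKM in the untreated libraries, also without overlap (1.5-fold, log2 0.58, SE 0.0711, limma adjusted p = 0.00107). Shmt2 was 1.42-fold higher (limma adjusted p = 0.0022) and Trib3 1.45-fold (limma adjusted p = 0.00353). In all, 8 of the 9 synthesis enzymes rose, and the exception was Cth, at 0.892, 0.822 and 1.01 FPKM with IgE, against 1.32, 1.38 and 1.19 FPKM untreated, a lower level in every IgE library that missed the threshold (log2 -0.27, limma adjusted p = 0.0557).

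Of the 12 tRNA synthetases, 11 rose with IgE, within a narrow range of log2 0.17 to 0.35 over all 12. The largest was Mars, with 42.6, 41.1 and 41.7 FPKM in the IgE libraries, against 30.1, 35.6 and 32.2 FPKM in the untreated libraries. The groups did not overlap (1.28-fold, limma adjusted p = 0.00305). Gars was 1.27-fold and Aars 1.26-fold higher (limma adjusted p = 0.00117 and 9.56e-04). Lars, at 1.13-fold, missed the threshold (limma adjusted p = 0.0703).

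Among the 6 transcription factors 1 rose and 1 fell with IgE, which is near the 14.5% of all tested genes called higher and the 13.1% called lower. Atf4 had 278, 278 and 273 FPKM in the IgE libraries, against 206, 247 and 203 FPKM in the untreated libraries, with no overlap but with untreated replicate 2 close by (1.26-fold, log2 0.34, SE 0.0716, limma adjusted p = 0.0105). The call of Atf4 ended after quantile normalization (log2 0.22, limma adjusted p = 0.0511). Ddit3 fell to 42.8, 44.2 and 38.8 FPKM in IgE libraries, against 45.5, 48.8 and 48.4 FPKM in untreated libraries (log2 -0.18, SE 0.0512, limma adjusted p = 0.0332), opposite to Atf4. Its groups did not overlap, but the call ended without IgE replicate 1, without untreated replicate 2 (limma adjusted p = 0.0933) and without untreated replicate 3 (limma adjusted p = 0.102). Nupr1 differed by 0.06 on the log2 scale (95% interval -0.03 to 0.14), Cebpg by 0.03 (95% interval -0.09 to 0.15) and Cebpb by 0.12 (95% interval -0.27 to 0.51), none of which passed. Chac1, at log2 0.30, also missed the threshold (limma adjusted p = 0.0668).

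Of the transporters, 5 of 7 rose with IgE. Slc7a5 had 30.1, 30.1 and 41.7 FPKM in the IgE libraries, against 24.7, 26.2 and 23.6 FPKM in the untreated libraries, with IgE replicate 3 the highest. The rise was 1.37-fold (log2 0.42, SE 0.115, limma adjusted p = 0.0282). Without IgE replicate 3 the log2 difference was 0.27 (limma adjusted p = 0.00565), and the call ended without untreated replicate 1 (0.42, limma adjusted p = 0.079) or untreated replicate 3 (0.39, limma adjusted p = 0.0905). Slc1a4 was 1.36-fold, Slc1a5 1.22-fold, Slc7a11 1.27-fold and Slc38a2 1.18-fold higher. Slc3a2 overlapped between the groups, at 219 ± 5.73 FPKM with IgE and 227 ± 5.21 FPKM untreated (log2 -0.05, 95% interval -0.13 to 0.03, limma adjusted p = 0.34).

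The comparison of antigen with untreated cells shares its libraries with the other 2 comparisons. Of the 39 genes, 38 were called higher and 0 lower by limma, where 37.2% of all tested genes were called higher and 34.4% lower, 71.7% in either direction. Every antigen library lay above every untreated one in 38 of the 39, against 40.2% of all tested genes, and 30 were called higher with a log2 difference of at least 1, against 7.41%. The median log2 difference was 1.27 over the 39 genes and 0.002 over all tested genes. Vldlr, which passed the filter on low values through the antigen libraries alone, had to differ here too. Without it, 37 of 38 genes were called higher, 29 of them with a log2 difference of at least 1, and the median was 1.24. Slc7a11 (17.7-fold), Chac1 (16.9-fold), Vldlr (13.2-fold) and Slc7a5 (9.72-fold) had the largest ratios of means among the 39. Phgdh reached 5.51-fold (log2 2.40, SE 0.0862, limma adjusted p = 5.64e-08) and Asns 4.86-fold (log2 2.26, SE 0.0711, limma adjusted p = 2.72e-08). The summed FPKM of the 12 synthetases was 1174 to 1212 in antigen, 574 to 610 in IgE and 482 to 530 in untreated libraries, and that of the 7 transporters 869 to 884, 312 to 343 and 302 to 320 FPKM. Ddit4 was again the exception, with every antigen library below every untreated one, as in 38% of all tested genes, but a log2 difference of -0.10 that missed the threshold (limma adjusted p = 0.0954), and it passed after quantile normalization (log2 -0.25, limma adjusted p = 0.00479).

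Other genes of the pathway set the 39 in context, with lists drawn up by function. These lists, like the 39 genes, were chosen with earlier results of these data known. Of 19 tested further ATF4 target genes, 17 rose with antigen over IgE and 2 fell, with a median log2 difference of 1.05. Of all tested genes, 36.2% were called higher and 34.9% lower. Atf3 and 2 others of them would not have passed the filter on low values without the antigen libraries. Such a filter favours genes that are high with antigen, and those below 1 FPKM in every other library, such as Atf3, had to differ. Without these 3 genes 14 of 16 rose, 2 fell and the median was 1.14. Atf3, a stress-induced factor of the ATF family, had 6.98, 7.15 and 7.18 FPKM in the antigen libraries, 0.117, 0.115 and 0.158 FPKM in the IgE libraries and 0.192, 0.171 and 0.243 FPKM in the untreated libraries. It was near 0 without antigen and 54.6-fold higher with antigen than with IgE (log2 2.84, SE 0.0445, limma adjusted p = 7.09e-10). Sqstm1, the autophagy receptor p62, averaged 2003 ± 22.5 FPKM with antigen, 458 ± 11 FPKM with IgE and 451 ± 20.9 FPKM untreated (4.38-fold over IgE). Herpud1, a gene of protein degradation at the endoplasmic reticulum, rose 3.17-fold and Gabarapl1, an autophagy gene, 3.34-fold. Gdf15, a secreted stress factor, went the other way, with 7.5, 7.51 and 6.76 FPKM in the antigen libraries, against 16, 17.5 and 19.1 FPKM in the IgE libraries (log2 -1.17, limma adjusted p = 1.23e-06). Wipi1 was the other gene that fell (log2 -0.34, limma adjusted p = 0.0139). Gdf15 and Wipi1 were chosen after their values were seen.

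The tRNA synthetase lists outside the set had medians near or below 0. Of 11 other cytosolic synthetase and scaffold genes, 4 rose and 2 fell with antigen over IgE, with a median log2 difference of 0.08. Of all tested genes, 36.2% were called higher and 34.9% lower, so the share that rose is near that of tested genes at large. Rars, for arginine, showed the largest rise, with 43.7, 42.5 and 42.2 FPKM in the antigen libraries, against 33.4, 33 and 31.1 FPKM in the IgE libraries (1.32-fold, limma adjusted p = 3.78e-05), and Aimp2, a scaffold of the synthetase complex, fell (log2 -0.63, limma adjusted p = 7.23e-05). Of the 17 mitochondrial synthetases 0 rose and 10 fell, with a median of -0.20. Aars2, the mitochondrial alanine enzyme, had 1.52, 1.73 and 1.79 FPKM in the antigen libraries, against 4.31, 4.36 and 3.71 FPKM in the IgE libraries (log2 -0.93, limma adjusted p = 4.38e-06), while its cytosolic counterpart Aars was 1.96-fold higher. The difference between these lists was not tested.

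Of 12 tested further one-carbon genes, 1 rose and 7 fell with antigen over IgE, where 36.2% of all tested genes were called higher and 34.9% lower. Mthfd1l, the mitochondrial formate-releasing enzyme, rose (1.48-fold, limma adjusted p = 1.33e-05), and the cytosolic Mthfd1 fell (log2 -0.58, limma adjusted p = 3.8e-05), as did Sfxn1, the mitochondrial serine carrier (log2 -0.79, limma adjusted p = 6.39e-07). With IgE over untreated, Mthfd1l, Mthfd1 and Tyms all rose, by 1.62-fold, 1.43-fold and 1.45-fold, and 5 of the 12 rose and 0 fell. In that comparison 14.5% of all tested genes were called higher and 13.1% lower. Of 11 other amino acid transporters, 6 rose and 1 fell with antigen, led by Slc38a1, a glutamine carrier (3.0-fold, limma adjusted p = 7.24e-07), and Slc6a9, a glycine carrier (2.41-fold, limma adjusted p = 2.22e-05).

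Upstream of ATF4, the eIF2 genes were called no more often than tested genes at large, of which 36.2% were higher and 34.9% lower. Among 17 genes of eIF2 kinases, eIF2, its exchange factor eIF2B and its phosphatase, 5 rose and 4 fell with antigen over IgE. The phosphatase subunits Ppp1r15a and Ppp1r15b, which reverse eIF2 phosphorylation, both rose 1.61-fold (limma adjusted p = 5.36e-07 and 8.1e-07), and Eif2s2, a subunit of eIF2, rose 1.87-fold (limma adjusted p = 2.17e-07). Impact, an inhibitor of GCN2, fell (log2 -0.37, limma adjusted p = 3.34e-05). Eif2s3x, on the X chromosome, was listed at 0 in antigen replicate 3 and at 61.3 and 59.3 FPKM in the others, and no fold is given for it. Of 20 mTORC1 and amino acid sensing genes 5 rose and 10 fell, with Rptor (3.23-fold) and Rheb (2.23-fold), which are an mTORC1 subunit and its activator, higher, and Depdc5, of the GATOR1 inhibitor, and Sesn3 lower (log2 -0.94 and -1.64). The 10 include Rragb, which was listed at 0 in antigen replicate 3. Sesn2, the paralog of Sesn3 described above, was 2.17-fold higher. In the XBP1 and ATF6 arms of the unfolded protein response, 7 of 16 genes rose and 4 fell, and in the list of glutathione and methionine cycle genes 5 of 9 rose and 0 fell, led by Gclc, the rate-limiting enzyme of glutathione synthesis (2.67-fold, limma adjusted p = 4.06e-09).

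With IgE over untreated, the counts of the other lists are read against the 14.5% of all tested genes called higher and the 13.1% called lower. Of the 11 other cytosolic synthetase and scaffold genes 7 rose and 0 fell, among them Eef1e1, a scaffold protein (1.33-fold, limma adjusted p = 0.00615), and Hars, the histidine enzyme (1.23-fold, limma adjusted p = 0.00553), and of the 17 mitochondrial synthetases 2 rose and 0 fell. In the XBP1 and ATF6 arms 10 of 16 genes rose and 1 fell, and of the 19 further ATF4 targets 5 rose and 3 fell. Ppp1r15a fell with IgE (log2 -0.30, limma adjusted p = 8.49e-04), and 2 of the 17 eIF2 genes rose and 3 fell, which is near those shares. Also near them, of the 20 mTORC1 and amino acid sensing genes 2 rose and 3 fell, and of the 11 other transporters 1 rose and 2 fell. Of the 9 glutathione and methionine cycle genes 4 rose and 1 fell.

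**Figure D4:**
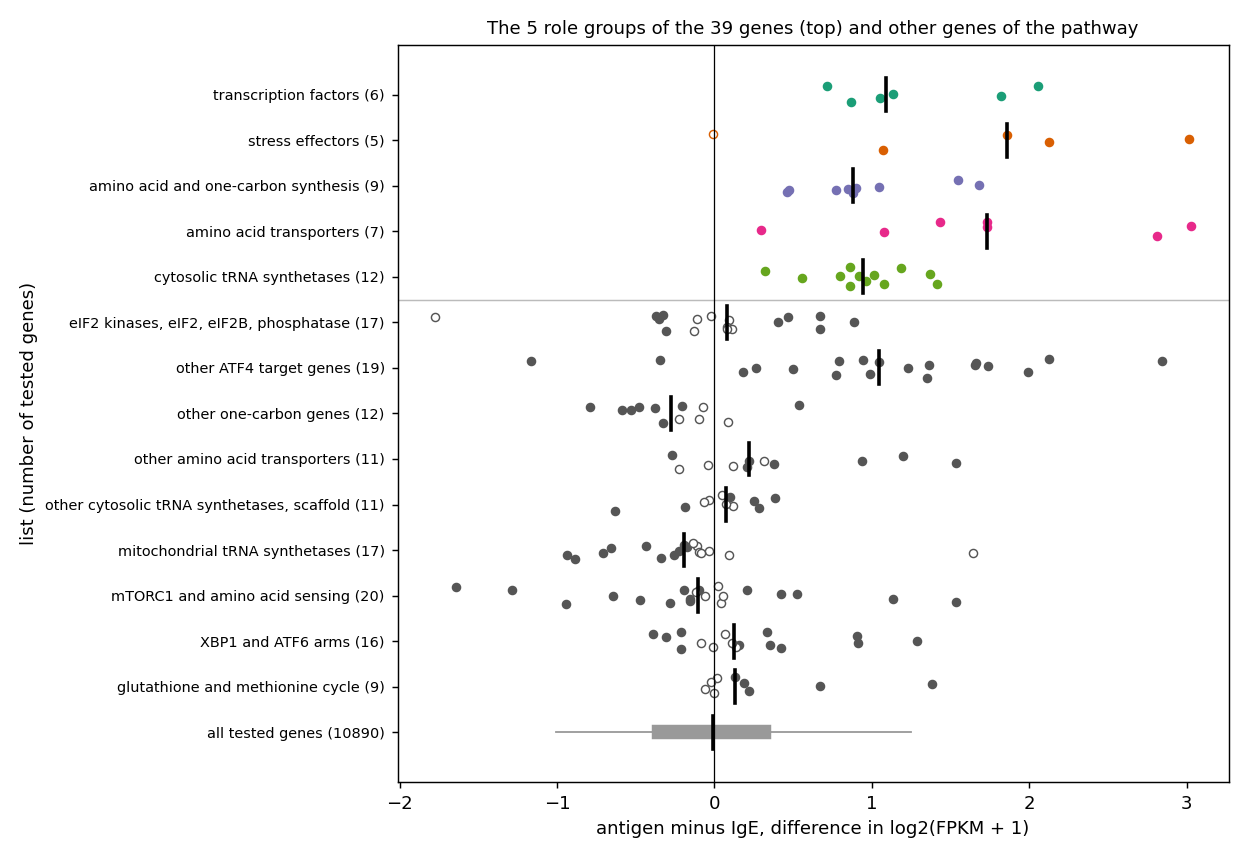
Difference in log2(FPKM + 1), antigen minus IgE, for each tested gene of the 5 role groups (coloured, top) and of the other pathway lists (grey), with filled points for genes that passed the test, a black bar at each list's median, and for all 10890 tested genes the median, the quartiles (thick) and the range from the 5th to the 95th percentile (thin). The medians of the role groups lie between 0.88 and 1.86, the highest being that of the stress effectors (1.60 without Vldlr, which had to differ), and that of the further ATF4 targets at 1.05, while those of the other lists lie between -0.28 and 0.22.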

How the data were processed

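RNA from 9 libraries was sequenced, 3 each from antigen, IgE and untreated cells. The deposited table holds FPKM, computed by the authors per gene symbol. The submitters' processing notes name the build mm9, TopHat2 2.0.12 and Bowtie 0.12.7. The sources used here do not give the FPKM program, the annotation or whether strand was used. Depth was estimated at 20.9M to 40.0M reads from the steps of low values, of which 46.6% to 59.7% lay within 0.1 of a whole read, so no count test was run.

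From these values, log2(FPKM + 1) was fitted with limma 3.58.1 (R 4.3.3, trended prior) over all 9 libraries and the 10890 genes that reached 1 FPKM in 3 or more libraries. P-values were adjusted by Benjamini-Hochberg within a comparison and called under 0.05. A fold is the ratio of group means of FPKM. SDs and intervals (95%) cover n = 3 libraries a group. The fit was tested on simulated data.

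The members and lists were chosen with earlier results of these data known. All 39 members may be named, and of each other list up to 4 called genes with the smallest adjusted p per comparison. One gene that this rule names is not reported here. Promoter windows came from RefSeq (GRCm38.p6). Alternatives were the pseudocount, the filter, the scaling, the libraries fitted, the prior, the replicate block, a 1.5-fold minimum and leaving out each library.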

Additional observations from a re-analysis of the deposited data

How the results depend on the processing

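With antigen over IgE, the call or its absence held for all 39 genes under every alternative tried except a 1.5-fold minimum, wherever the gene passed the filter (requiring 1 FPKM in all 9 libraries drops Vldlr, Aldh1l2, Cth and Slc7a11). The size of the log2 difference did depend on the alternative. It ran from 0.146 to 0.335 for Mars, 0.145 to 0.325 for Slc38a2, 0.804 to 1.16 for Atf4 and 3.0 to 3.7 for Slc7a11. For Mars and Slc38a2 the limma adjusted p rose to 0.0357 and 0.0418. Ddit4, not called, changed sign at 0.0310 without antigen replicate 1 and 0.0147 without IgE replicate 3, within a leave-one-out range of -0.0337 to 0.0310. With IgE over untreated, 14 of the 39 were called in every alternative except that minimum, 8 in none and 17 in some. Leaving out 1 library gave 16 to 27 genes of the 39 higher and 0 to 1 lower, and 1015 to 1942 higher and 880 to 1945 lower among all genes. The uncalled Cebpg turned to -0.00171 without IgE replicate 1 and -0.0183 without untreated replicate 1 (range -0.0183 to 0.0811), Cebpb to -0.00903 without IgE replicate 3 (range -0.00903 to 0.310), and Sesn2 to -0.0739 without IgE replicate 3 and -0.0266 without untreated replicate 1 (range -0.0739 to 0.116). The minimum of 1.5-fold on the log2(FPKM + 1) scale left 33 of the 39 higher with antigen over IgE, 2 higher and 0 lower with IgE over untreated, and 36 higher with antigen over untreated. Among all genes it left 125 higher and 37 lower with IgE over untreated, 1546 higher and 1277 lower with antigen over IgE, and 1586 higher and 1314 lower with antigen over untreated. Pseudocounts of 0.1 and 0.5 gave 2 of the 39 lower with IgE, with Cth added to Ddit3. Quantile normalization gave 1 lower with antigen over untreated, Ddit4. Over all tested genes, that normalization moved the share called higher with antigen over IgE from 36.2% to 30.4%, and the share called lower from 34.9% to 36.7%. The causes were not tested.

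Same-numbered libraries did not deviate together throughout (correlations of -0.153 to 0.017 for antigen and IgE, -0.02 to 0.045 for antigen and untreated, and 0.036 to 0.35 for IgE and untreated), so the numbers are not taken as pairs. With the replicate block, 38 of the 39 were higher and 0 lower with antigen over IgE, 23 higher and 0 lower with IgE over untreated, and 38 higher and 0 lower with antigen over untreated.

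Depth limits the genes near 1 FPKM most: Cth, Vldlr, Slc7a11, Aldh1l2 and Chac1 without antigen.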

Other observations

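Lars2, the mitochondrial leucine synthetase, was listed at 442, 260 and 1201 FPKM in the antigen libraries, 98.7, 185 and 245 FPKM in the IgE libraries and 164, 56.1 and 1263 FPKM in the untreated libraries, a spread within groups that the other mitochondrial synthetases did not show and that was noticed after the values were seen. Rragb, a Rag GTPase on the X chromosome, was listed at 0 in antigen replicate 3 and at 1.76 and 1.87 FPKM in the other antigen libraries, against 3.77 to 3.95 FPKM in the IgE libraries and 3.46 to 3.82 FPKM in the untreated libraries.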
